A study of Homo sapiens with 4 samples.

Results

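Cadherins and protocadherins were followed in K562 cells that express the JAZF1-SUZ12 fusion and in mock K562 cells. The members were the protein-coding rows of the count table whose symbol is CDH followed by digits or starts with PCDH, with PCDH11Y left out. This gave 88 genes of 35606 in the table: 23 CDH genes, 12 protocadherins outside the gene clusters, and 53 clustered protocadherins, of which 15 belong to the alpha, 16 to the beta and 22 to the gamma cluster. The rule uses no measured value, but the members were chosen with earlier results of these data known. K562 is an established line from a human chronic myeloid leukaemia and carries erythroid traits. The fusion, known from endometrial stromal sarcoma, links JAZF1, which works with the NuA4/TIP60 acetyltransferase, to SUZ12 of the Polycomb complex PRC2. RNA from 2 libraries labelled JS (JAZF1-SUZ12) and 2 labelled Mock was sequenced after poly(A) selection, and the label of origin reads uterus although the cell line is K562. How the fusion was introduced, what the mock cells received and whether the cells are clones are not given in the sources used here. Nor do the labels say that the libraries of a group came from separate cultures, so p-values measure the spread between these libraries, which may be technical.

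Cadherins are calcium-dependent adhesion proteins whose extracellular repeats bind like molecules on the neighbouring cell. Classical cadherins bind p120 and beta-catenin through their cytoplasmic tails and so connect to actin, whereas protocadherins lack that tail and signal through other partners. The clustered protocadherins lie in a row on chromosome 5. In neurons each cell uses a small choice of their promoters, and the binding of CTCF to a conserved element in these promoters takes part in that choice. Alpha and gamma transcripts join a variable first exon to shared last exons, while beta genes have their own ends. K562 cells grow in suspension.

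The libraries held between 17260936 and 24423028 estimated counts. Replicates differed by more than sampling noise, with chi-square per degree of freedom of 3.73 for the JAZF1-SUZ12 pair and 3.49 for the mock pair. The erythroid markers summed to between 6873 and 8197 CPM (counts scaled to 1000000 per library) in a library, and 2 of 7 rose. Those of stroma summed to at most 1.61 CPM with LUM at 0 in every library. Endothelial markers summed to between 9.39 and 14.8 CPM, with TEK at 0 in every library, and 2 of the 5 were tested, with none called. Epithelial markers summed to between 49.4 and 63.0 CPM, with KRT5 at 0 in every library. Only 1 of the 5 had enough counts to be tested, and it was called lower. Neural markers summed to at most 0.929 CPM, and none of the 5 was tested. As a check of the labels, JAZF1 had 12 and 27 counts in the mock and 574 and 731 in the JAZF1-SUZ12 libraries. SUZ12 was at 134 ± 3.28 CPM in mock and rose to 272 ± 4.19 (SD, n = 2 each, by edgeR adjusted p = 1.15e-09). Counts are per gene, so reads of the fusion and of the cells' own JAZF1 and SUZ12 are not told apart.

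Most of the family had too few counts to be tested. In 20 of the 88 members no count was found in any library, and 11 others had at most 3 counts in each, so that 31 of 88 (35.2%) were at or under the floor of 3 counts. Over all 19663 protein-coding rows this share was 19.3%. It was 22 of 53 (41.5%) for clustered protocadherins, whose reads may be assigned to a related member, and 9 of 35 (25.7%) for all others. For CDH genes alone it was 3 of 23 (13.0%), below the share of all protein-coding rows. A count of 3 corresponds to between 0.123 and 0.174 CPM in these libraries. This floor is a chosen setting and not a measured limit of detection, and levels at or under it are not told from absence here. Another 32 members had more counts than this in at least 1 library but too few to be tested, and 25 were tested. These 25 passed the filter on counts and do not stand for the whole family. Of the 25, 14 were clustered protocadherins, 8 were CDH genes and 3 were protocadherins outside the clusters.

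Of the 25 tested members, 4 rose in JAZF1-SUZ12 cells and none fell (edgeR quasi-likelihood test, adjusted p under 0.05 over all 14750 genes tested). The 4 were CDH22, CDH23, PCDH10 and PCDH1. Of these, CDH22 passed the filter on counts through its JAZF1-SUZ12 libraries alone. The 4 are 16.0% of the members tested, against 13.3% of all genes tested that were called higher, 11.4% called lower and 24.7% called in either direction, so the share of members called higher was close to the background. At an unadjusted p under 0.05 edgeR, DESeq2 and limma-voom each found no member lower. At an adjusted p under 0.05 DESeq2 called 3 members higher and limma-voom 4. The median log2 fold change of the 25 was 0.30, against 0.0032 over all genes tested. Both JAZF1-SUZ12 libraries lay above both mock libraries in CPM for 9 of the 25, where 33.8% of all tested genes did so, and below them for 1 member, PCDHGA2, where 27.2% did so. In RNA from bulk cells, a change in the share of cells that express a gene cannot be told apart from a change in the RNA per cell.

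**Figure D1:**
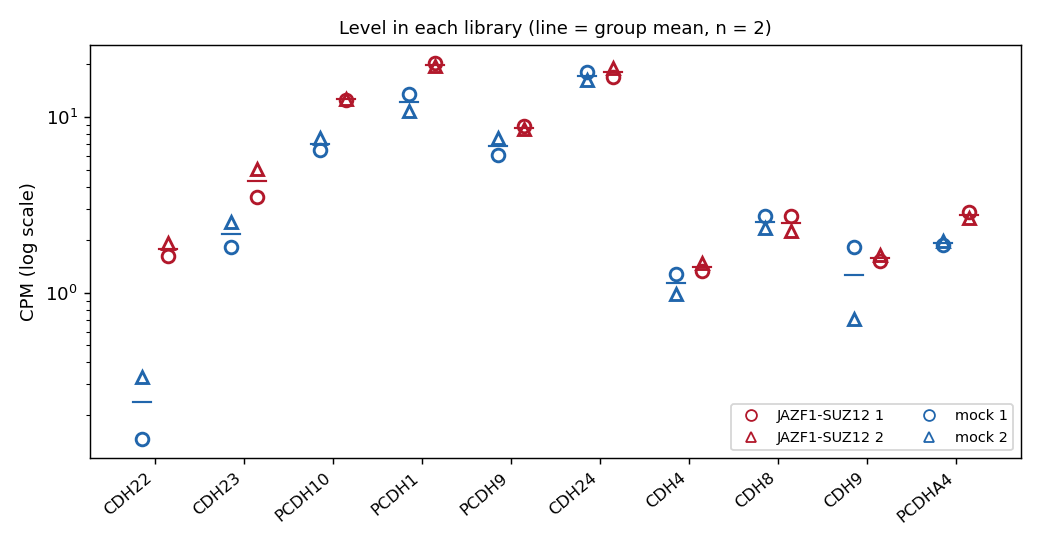
CPM (log scale) in each of the 4 libraries for 10 members; circles are replicate 1, triangles replicate 2, red JAZF1-SUZ12, blue mock, and short lines are group means (n = 2). CDH22, CDH23, PCDH10 and PCDH1 show no overlap between the groups, while CDH24 and CDH8 overlap.

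RefSeq promoter entries (GRCh38.p14) were found for 69 of the 88 members, PCDH1 and CDH23 among them. The 250 bases before the RefSeq start are shown for these because both genes rose. They are written 5′ to 3′ on the gene's strand. The window of PCDH1 is chr5:141869628-141869877 (minus strand), and that of CDH23, for the first of its 3 RefSeq starts, is chr10:71396670-71396919 (plus strand).
PCDH1: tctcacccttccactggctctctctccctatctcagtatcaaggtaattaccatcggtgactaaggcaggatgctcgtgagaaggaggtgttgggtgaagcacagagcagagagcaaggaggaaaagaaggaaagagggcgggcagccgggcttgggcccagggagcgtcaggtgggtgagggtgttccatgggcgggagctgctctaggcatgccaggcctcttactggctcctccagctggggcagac
CDH23: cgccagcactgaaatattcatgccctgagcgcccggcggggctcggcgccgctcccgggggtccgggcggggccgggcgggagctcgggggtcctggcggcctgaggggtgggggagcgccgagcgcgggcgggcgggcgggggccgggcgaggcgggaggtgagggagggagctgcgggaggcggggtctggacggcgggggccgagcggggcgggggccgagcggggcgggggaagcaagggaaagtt

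In the PCDH1 window 59.2% of bases were G or C, with an observed to expected ratio of CpG of 0.284. In that of CDH23 the values were 80.8% and 0.971. Over all 35116 promoter entries the medians were 58.0% and 0.558, so this CDH23 window was above them in both, and the PCDH1 window was near the median in base content and below it in CpG. The windows of the other 2 CDH23 starts had 60.8% and 65.6% G or C with CpG ratios of 0.072 and 0.186, so the values of CDH23 depended on the start taken. The start that RefSeq gives for PCDH1 lies inside the longer gene model of GENCODE.

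Among the classical cadherins of type II, CDH22 rose most. CDH22 (chromosome 20, 46173733 to 46308498, minus strand, GRCh38), a cadherin known from the brain, had 3 and 7 counts in the mock and 28 and 47 in the JAZF1-SUZ12 libraries. Both JAZF1-SUZ12 libraries were well above both mock libraries, which were close to the floor. CDH22 passed the filter on counts through the JAZF1-SUZ12 libraries alone, so it could be tested only because it was high in that group. The level rose from 0.238 ± 0.129 to 1.77 ± 0.214 CPM (SD, n = 2 each), that is by 2.84 on the log2 scale (standard error, SE, 0.55, edgeR, adjusted p = 0.00141). From the summed counts alone the ratio was 7.51, with an exact 95% counting interval from 3.87 to 16.3. The fitted log2 fold change became 2.38 if mock replicate 1 was omitted and 3.52 if mock replicate 2 was omitted, where the remaining mock library had 3 counts.

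CDH24, another type II cadherin, which carries the highest level of the family per length, did not pass the test. It had 368 and 348 counts in the mock and 293 and 466 in the JAZF1-SUZ12 libraries, or 17.2 ± 1.17 and 18.0 ± 1.49 CPM (SD, n = 2 each). The groups overlapped, and the log2 fold change was 0.054 (SE 0.11, edgeR, adjusted p = 0.765), with a sign that depended on which library was left out. CDH8, a type II cadherin of neurons, had 56 and 50 counts in the mock and 47 and 55 in the JAZF1-SUZ12 libraries. Its groups overlapped, and the difference was -0.061 on the log2 scale (SE 0.30, edgeR, adjusted p = 0.908). CDH9, which is known from synapses, ranged from 15 to 40 counts over the 4 libraries, and its mock libraries stood farther apart than the groups did. CDH6, known from the kidney and from neural crest, had between 4 and 15 counts. Of the 8 type II genes that were not tested, CDH20 had no count, CDH10 had at most 3, and CDH5, CDH7, CDH11, CDH12, CDH18 and CDH19 had at most 11 counts in a library. CDH5 is VE-cadherin of endothelium and had 4 counts in JAZF1-SUZ12 replicate 1 and 0 elsewhere. CDH11, typical of mesenchyme and stroma, had 4 counts in JAZF1-SUZ12 replicate 2, 2 in mock replicate 1 and 0 in the other libraries.

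Of the 5 classical cadherins of type I, none was at or under the floor in every library, but 4 had too few counts to be tested. CDH1, which encodes the E-cadherin of epithelia, had 9 counts in each mock library and 5 and 8 in the JAZF1-SUZ12 libraries, a ratio of 0.723 with an exact 95% counting interval from 0.326 to 1.56. CDH2, which encodes the N-cadherin of neural and mesenchymal cells, had 0 and 1 counts in the mock and 2 and 11 in the JAZF1-SUZ12 libraries. Most of that signal came from JAZF1-SUZ12 replicate 2, the deepest library, and the ratio of 13.02 had an exact 95% counting interval from 1.96 to 553. CDH3, the P-cadherin, had 1 and 0 counts in the mock and 5 and 3 in the JAZF1-SUZ12 libraries (ratio 8.01, exact 95% counting interval from 1.07 to 355). None of these 3 had enough counts for the test across genes, and the intervals cover counting error only. CDH15, the M-cadherin of muscle, had between 4 and 8 counts. CDH4, the R-cadherin of retina, was the type I member that could be tested. It had 26 and 21 counts in the mock and 23 and 36 in the JAZF1-SUZ12 libraries, with a difference of 0.30 on the log2 scale (SE 0.42, edgeR, adjusted p = 0.660).

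CDH23 stands outside the classical types. It forms the upper part of the tip link of hair cells in the inner ear, together with PCDH15, and its long extracellular part holds many cadherin repeats. CDH23 (chromosome 10, 71396934 to 71815947, plus strand) had 37 and 54 counts in the mock and 61 and 124 in the JAZF1-SUZ12 libraries, or 2.17 ± 0.513 and 4.31 ± 1.09 CPM (SD, n = 2 each). The groups did not overlap, but the JAZF1-SUZ12 libraries differed from each other by more than the gap to the nearest mock library. On the log2 scale it rose by 0.97 (SE 0.28, edgeR, adjusted p = 0.0184). The call was lost with DESeq2 (adjusted p = 0.0684), without JAZF1-SUZ12 replicate 2 (log2 fold change 0.69, edgeR, adjusted p = 0.227) and without mock replicate 1 (log2 fold change 0.74, edgeR, adjusted p = 0.102). VSIR, an immune checkpoint gene on the opposite strand inside the CDH23 locus, had 409 and 494 counts in the mock and 251 and 333 in the JAZF1-SUZ12 libraries and fell by 0.64 on the log2 scale (edgeR, adjusted p = 0.000593). The library kit keeps strand, per the labels, but whether counting used it is not given in the sources used here, and the part of VSIR reads in the CDH23 value was not tested. PCDH15, the tip link partner, had between 1 and 4 counts. CDH13, the T-cadherin, which has a lipid anchor in place of a transmembrane part, had between 3 and 14 counts and -0.30 on the log2 scale (SE 0.71, edgeR, adjusted p = 0.80). CDH16, CDH17 and CDH26, which are known from kidney, gut and other epithelia, had at most 6 counts in a library.

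Outside the clusters, PCDH10 and PCDH1 rose and PCDH9 lay below the threshold. PCDH10 (chromosome 4, 133149315 to 133208606, plus strand), a delta-2 protocadherin whose promoter is often methylated in tumours, had 133 and 163 counts in the mock and 217 and 310 in the JAZF1-SUZ12 libraries. Its level rose from 7.08 ± 0.812 to 12.6 ± 0.0857 CPM (SD, n = 2 each), that is by 0.81 on the log2 scale (SE 0.15, edgeR, adjusted p = 0.000844). The groups did not overlap, and the JAZF1-SUZ12 libraries were nearly equal. PCDH1 (chromosome 5, 141853111 to 141879246, minus strand), a delta-1 protocadherin of airway epithelium, had 276 and 232 counts in the mock and 350 and 476 in the JAZF1-SUZ12 libraries. Its level rose from 12.2 ± 1.84 to 19.9 ± 0.557 CPM (SD, n = 2 each), that is by 0.68 on the log2 scale (SE 0.12, edgeR, adjusted p = 0.000705). Both genes kept their call in each of the 7 other fits and in the 4 fits that left out a library.

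PCDH9, a delta-1 protocadherin of the brain, had 124 and 162 counts in the mock and 153 and 208 in the JAZF1-SUZ12 libraries. Its groups did not overlap in CPM, yet the log2 difference of 0.32 (SE 0.17) missed the threshold (edgeR, adjusted p = 0.186). PCDH8, PCDH19 and PCDH20 had no count in any library. PCDH7, PCDH17 and PCDH18 had at most 3 counts in each library. PCDH11X, PCDH12 and PCDH15 had more but were not tested, with at most 7 counts. Outside the clusters, then, 3 genes had over 100 counts in every library and the other 9 had at most 7.

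Levels can be ranked among genes only per length, here as CPM per kilobase of the longest coding transcript in GENCODE 29. In mock cells CDH24 was highest at 4.83 ± 0.330, followed by PCDH1 at 2.54 ± 0.384, PCDH10 at 0.834 ± 0.0957 and CDH9 at 0.408 ± 0.254 (SD, n = 2 each). In JAZF1-SUZ12 cells the order began with CDH24 at 5.08 ± 0.419, PCDH1 at 4.15 ± 0.116 and PCDH10 at 1.49 ± 0.0101, and CDH9 at 0.511 ± 0.0302 was followed by CDH22 at 0.454 ± 0.0548 (SD, n = 2 each). CDH9 and CDH22 did not differ beyond the spread of their libraries there, whereas in mock cells CDH22 was at 0.0609 ± 0.0330. PCDH9, whose longest coding transcript has 28227 bases, was lower per length (0.242 ± 0.0386 in mock) than its counts would place it.

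**Figure D2:**
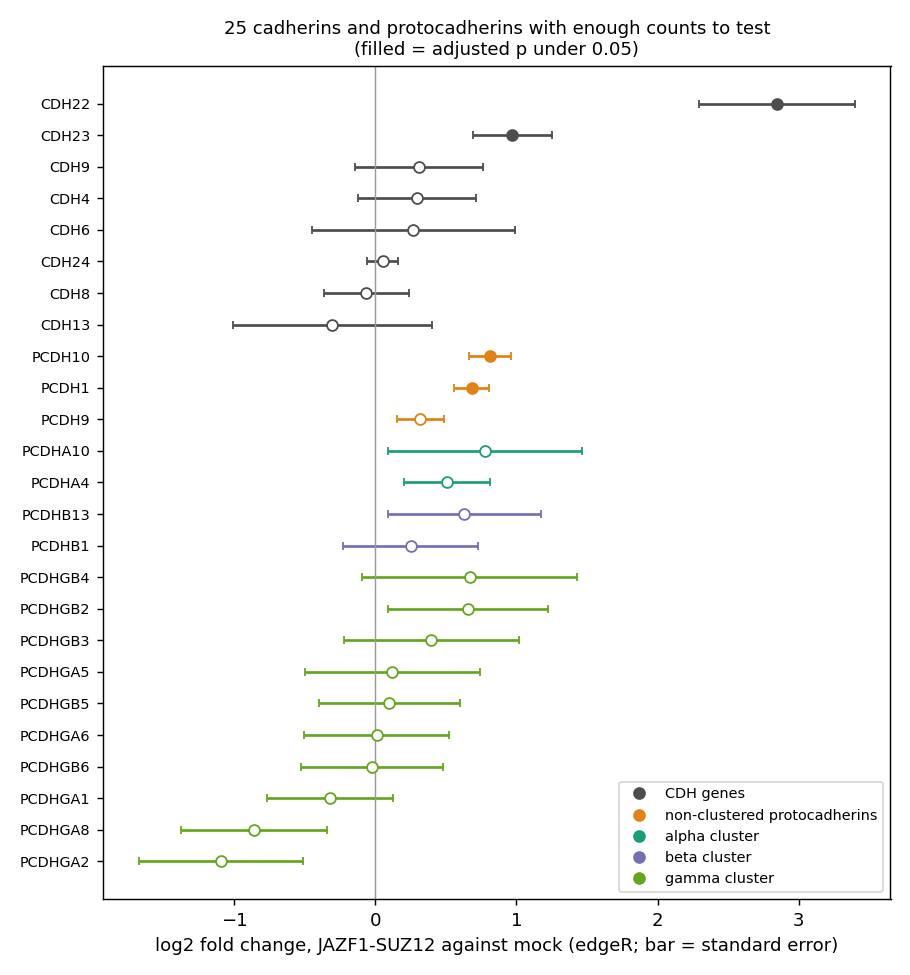
Log2 fold change, JAZF1-SUZ12 over mock (x axis), for the 25 tested members, with bars for the standard error and filled points for an adjusted p under 0.05. The 4 filled points are CDH22, CDH23, PCDH10 and PCDH1, and the 14 clustered members all have open points.

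None of the 14 clustered protocadherins tested was called in either direction, the smallest adjusted p being 0.192 for PCDHGA2 (edgeR). Of the members outside the clusters, 4 of 11 tested were called higher. The background share was 13.3% for higher calls and 24.7% for calls in either direction. These are the same 4 calls that made up 16.0% of all members tested, a share close to that background. The difference between clustered and other members was not tested, and the clustered members had fewer counts. At an unadjusted p under 0.05 none of the 14 passed with edgeR. Standard errors of the 14 lay between 0.30 and 0.76 on the log2 scale, against 0.12 for PCDH1, so smaller changes in them were not detectable at this depth.

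Transcripts of clustered genes share much of their sequence, which bears on how reads were assigned. In GENCODE 29 transcripts, 14 of the 15 alpha members end in a run of between 2866 and 2872 bases that is identical in another alpha member, and 21 of the 22 gamma members in a run of between 2181 and 2188 bases. Transcripts were compared in their own direction only, so stretches shared with the opposite strand were not counted. The share of a gene's distinct stretches of 31 bases that also occur in another gene was between 27.9% and 71.5% for alpha members and between 38.05% and 73.4% for gamma members. It was between 5.57% and 58.4% for beta members. PCDH1 and CDH22 shared none, PCDH10 shared 0.217% and CDH23 0.0424%. Values of single clustered members are therefore uncertain, and the sums over a cluster are given beside them. PCDH11X and PCDH20, with 71.4% and 95.8% shared, are also uncertain.

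Most counts assigned to the alpha cluster were assigned to PCDHA4. It had 38 and 42 counts in the mock and 50 and 65 in the JAZF1-SUZ12 libraries. Both JAZF1-SUZ12 libraries were higher in CPM, at 2.78 ± 0.166 against 1.92 ± 0.0802 (SD, n = 2 each), but the log2 difference of 0.51 (SE 0.30) was not called (edgeR, adjusted p = 0.247). PCDHA4 took 80.9% (95% Wilson interval 67.5 to 89.6) and 64.6% (52.5 to 75.1) of the alpha counts in the mock libraries, and 79.4% (67.8 to 87.5) and 69.9% (59.9 to 78.3) in those with JAZF1-SUZ12. The intervals of all 4 libraries overlap, and they do not cover the assignment of reads among alpha members. PCDHA10 was next with 4 and 12 counts in mock and 6 and 23 in JAZF1-SUZ12 libraries, with the libraries of a group far apart, and PCDHA9 had between 2 and 6. In 10 of the 15 alpha members, among them PCDHA1 and the C-type member PCDHAC2, no count was found in any library, and PCDHA5 and PCDHAC1 had at most 3. PCDHA4 and PCDHA10 had the lowest shares of 31-base stretches in common with other genes, 27.9% and 38.3%. In the 10 members without a count these shares were between 45.2% and 71.5%. Higher use of PCDHA4 and easier assignment of its reads cannot be told apart here. Summed over the cluster, the level was 2.68 ± 0.533 CPM in mock cells and 3.73 ± 0.112 CPM with the fusion (SD, n = 2 each).

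The promoters of a cluster share short words, and windows of a counted and an uncounted alpha member are shown to compare them. The words were found without use of the counts: in each cluster, the 9-base word held on either strand by the most genes. In the alpha cluster it was GATGTCGCT, present in 9 of the 13 genes with an entry, in the beta cluster GGTGGCGCT in 12 of 14, and in the gamma cluster GCGCCGCTG in 10 of 20. All 3 contain the bases CGCT, and no clustered gene carried the word of another cluster. Of all 35116 promoter entries, 0.0854%, 0.41% and 0.968% held the alpha, beta and gamma word. In the windows below, each 250 bases before the RefSeq start on the plus strand of chromosome 5, the word of the gene's cluster is in capitals. They are chr5:140785890-140786139 for PCDHA1, chr5:140806818-140807067 for PCDHA4, chr5:140855647-140855896 for PCDHA10, chr5:141213669-141213918 for PCDHB13 and chr5:141392383-141392632 for PCDHGA8.
PCDHA1: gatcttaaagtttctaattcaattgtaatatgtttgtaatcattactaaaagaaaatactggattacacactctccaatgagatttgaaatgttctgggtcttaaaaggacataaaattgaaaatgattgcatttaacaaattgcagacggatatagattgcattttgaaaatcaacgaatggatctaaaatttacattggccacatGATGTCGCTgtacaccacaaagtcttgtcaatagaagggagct
PCDHA4: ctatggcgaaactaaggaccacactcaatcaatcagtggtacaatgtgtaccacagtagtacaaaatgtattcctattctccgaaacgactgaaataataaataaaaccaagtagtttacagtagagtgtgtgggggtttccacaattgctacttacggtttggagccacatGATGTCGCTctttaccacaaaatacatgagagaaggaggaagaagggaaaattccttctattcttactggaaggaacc
PCDHA10: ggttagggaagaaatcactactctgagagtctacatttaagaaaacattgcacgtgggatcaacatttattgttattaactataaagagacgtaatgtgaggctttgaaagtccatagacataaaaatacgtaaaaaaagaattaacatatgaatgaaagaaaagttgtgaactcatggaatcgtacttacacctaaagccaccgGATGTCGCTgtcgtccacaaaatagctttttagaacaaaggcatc
PCDHB13: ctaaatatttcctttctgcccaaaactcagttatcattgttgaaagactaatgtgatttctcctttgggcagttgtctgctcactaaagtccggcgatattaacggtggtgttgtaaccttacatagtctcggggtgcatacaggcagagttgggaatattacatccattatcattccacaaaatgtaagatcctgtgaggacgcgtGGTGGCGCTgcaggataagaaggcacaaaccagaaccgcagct
PCDHGA8: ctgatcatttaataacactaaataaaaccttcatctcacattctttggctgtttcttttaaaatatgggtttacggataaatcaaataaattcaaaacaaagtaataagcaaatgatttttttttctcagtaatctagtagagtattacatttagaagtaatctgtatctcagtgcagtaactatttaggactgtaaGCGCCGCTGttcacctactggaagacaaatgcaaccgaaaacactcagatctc

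PCDHA1, without a count, and PCDHA4, with the most alpha counts, both hold the word. It begins 43 bases before the RefSeq start in PCDHA1, 45 in PCDHA10 and 78 in PCDHA4. The beta and gamma words begin 43 bases before the start in PCDHB13 and 53 in PCDHGA8. In GENCODE the models of PCDHA4 and PCDHGA8 begin at 140806929 and 141390157, so the words of these genes lie inside their GENCODE models. PCDHB1, the beta gene with the most counts over all libraries, holds no beta word in its window. The TATA word TATAAA, searched on both strands, occurred in 6 of 52 clustered windows (11.5%) and in 10.7% of all entries. AGGGGGCGC, taken from the CTCF motif, occurred in none of the 52 and in 1.75% of all entries. With so rare a word and so few windows, its absence says little. An exact word also does not cover variants of the motif, so whether these promoters hold CTCF sites was not tested. Median base content was 39.4% G or C in the 52 clustered windows, against 54.8% in the 35 windows of other members and 58.0% over all entries.

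In the beta cluster PCDHB1 and PCDHB13 were tested and neither was called. PCDHB1 lies at the edge of the cluster and had 21 and 16 counts in the mock and 22 in each JAZF1-SUZ12 library. It held between 29.6% and 42.3% of the beta counts of a library, and its groups overlapped in CPM. PCDHB13 had 11 counts in each mock library and 13 and 22 in the JAZF1-SUZ12 libraries, with a difference of 0.63 on the log2 scale (SE 0.54, edgeR, adjusted p = 0.438). PCDHB16 had 14 counts in mock replicate 1 and between 2 and 5 in the other libraries. PCDHB3, PCDHB4, PCDHB6, PCDHB10 and PCDHB12 had no count in any library. The cluster summed to 2.79 ± 0.962 CPM in mock cells and 2.80 ± 0.306 CPM with the fusion (SD, n = 2 each), with the mock libraries farther apart than the groups.

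The gamma cluster had the most counts of the 3, and they were spread over more of its members. Between 15 and 17 of its 22 members had more than 3 counts in a library, against 2 or 3 of 15 alpha and between 4 and 7 of 16 beta members. The most counted gamma member held between 11.4% and 19.8% of the cluster's counts, and it was PCDHGB6 in JAZF1-SUZ12 replicate 1 and mock replicate 2, PCDHGA1 in JAZF1-SUZ12 replicate 2 and PCDHGA8 in mock replicate 1. Gamma members share much of their sequence, and the part of read assignment in the spread of counts was not tested. PCDHGA2 was the tested member with non-overlapping lower values, with 15 and 19 counts in the mock and 7 and 9 in the JAZF1-SUZ12 libraries. Its log2 fold change was -1.09 (SE 0.58, edgeR, adjusted p = 0.192). It passed the filter on counts through its mock libraries alone. PCDHGB1 and PCDHGA4 had too few counts to be tested but were also lower in CPM without overlap. PCDHGA4 had 11 and 7 counts in the mock and 4 and 8 in the JAZF1-SUZ12 libraries. PCDHGB1 had 7 and 12 counts in the mock and 2 in each JAZF1-SUZ12 library. The ratio was 0.211, with an exact counting interval from 0.0522 to 0.634. PCDHGA9, also untested, had a ratio of 3.25 (1.43 to 8.32), but its groups overlapped. These untested members were named with their values in view, and the intervals cover counting error only. PCDHGA8 had 41 and 16 counts in the mock and 13 and 19 in the JAZF1-SUZ12 libraries, and mock replicate 1 stood apart, the log2 difference being -0.86 (edgeR, adjusted p = 0.255). The other 8 tested members, namely PCDHGA1, PCDHGA5, PCDHGA6, PCDHGB2, PCDHGB3, PCDHGB4, PCDHGB5 and PCDHGB6, had log2 fold changes between -0.32 and 0.67.

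The C-type gamma genes sit at the far end of the cluster. PCDHGC3 had at most 3 counts and PCDHGC5 none. PCDHGC4 had 0 counts in both mock libraries, 1 in JAZF1-SUZ12 replicate 1 and 11 in JAZF1-SUZ12 replicate 2, so that its signal came from 1 library; it was named after its values were seen. Summed over the gamma cluster, the level was 10.6 ± 0.643 CPM in mock cells and 10.01 ± 0.554 CPM with the fusion (SD, n = 2 each), and the libraries of both groups overlapped.

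**Figure D3:**
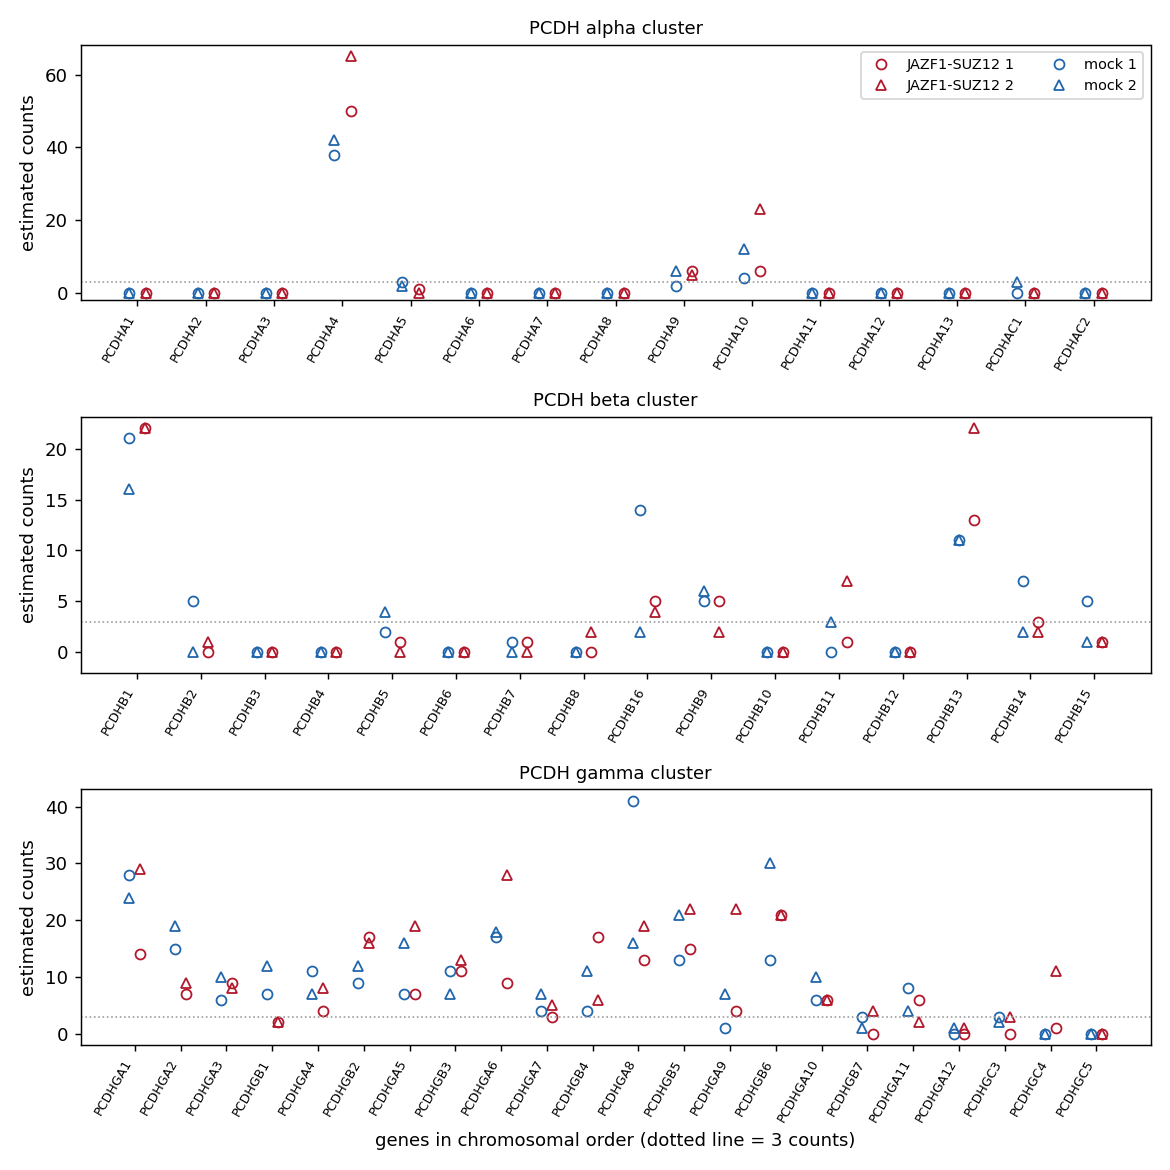
Estimated counts of every clustered member in each library, with genes in chromosomal order on the x axis, 1 panel per cluster, red for JAZF1-SUZ12, blue for mock, and a dotted line at 3 counts. PCDHA4 stands out in the alpha panel (38 to 65 counts), while counts in the gamma panel are spread over many genes.

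In the authors' deposited table, 67 of the 88 members are listed, 36 with an adjusted p, and 1 was called at 0.05. That member was CDH22, with a log2 fold change of 2.90 and an adjusted p of 0.0264 in the authors' deposited table. The authors' deposited table gave PCDH1 0.59 (adjusted p = 0.0987), PCDH10 0.73 (adjusted p = 0.105) and CDH23 0.95 (adjusted p = 0.292). So 3 of the 4 calls made here were not made there, although the fold changes were similar. For PCDH9 the authors' deposited table gave 0.89 (adjusted p = 0.0613), against 0.32 from the counts. The partner genes also differed, with JAZF1 at 6.82 against 5.05 from the counts and SUZ12 at 1.26 against 1.01. Direction was the same for 24 of the 25 tested members, the exception being PCDHGA6, which was near 0 in both.

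**Figure D4:**
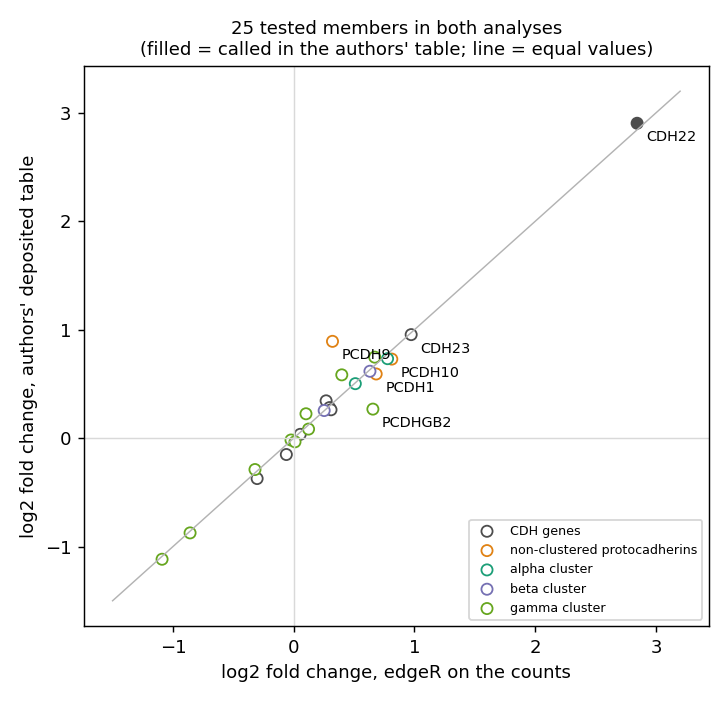
Log2 fold change from the authors' deposited table (y axis) against that from edgeR on the counts (x axis) for the 25 tested members; the line marks equal values and the filled point is called in the authors' table. CDH22 is filled, and PCDH9 lies above the line (0.89 against 0.32).

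Genes that work with cadherins were taken from 5 lists, which were chosen with earlier results of these data known. Their counts are given beside the 13.3% of all genes tested that were called higher and the 11.4% called lower. They are a description and not a test against those shares. Of 19 catenins, plakophilins and nectins with their partners, 14 were tested, 6 rose and none fell, with a median log2 fold change of 0.047. NECTIN1, a nectin that starts adherens junctions, had 11 and 31 counts in the mock and 101 and 136 in the JAZF1-SUZ12 libraries, a rise of 2.48 on the log2 scale (SE 0.34, edgeR, adjusted p = 6.87e-05). Omitting mock replicate 1 changed it to 1.93, and omitting mock replicate 2 to 3.36. CTNND1, the p120 catenin that holds classical cadherins at the membrane, rose by 0.31, PKP2 (plakophilin) by 0.44, CTNNAL1 (alpha-catulin) by 0.30 and AFDN (afadin, the actin link of nectins) by 0.21 on the log2 scale (edgeR, adjusted p = 0.00273, 0.00212, 0.00112 and 0.0036). The CTNND1 call was lost with DESeq2 (adjusted p = 0.0882) and without mock replicate 1 (log2 fold change 0.18, edgeR, adjusted p = 0.0557).

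Of 25 other members of the cadherin superfamily, 14 were tested, 3 rose and 1 fell, with a median log2 fold change of 0.12. CDHR1, a photoreceptor cadherin, had 83 and 98 counts in the mock and 299 and 430 in the JAZF1-SUZ12 libraries. Its level rose from 4.33 ± 0.383 to 17.5 ± 0.201 CPM (SD, n = 2 each), that is by 1.99 on the log2 scale (SE 0.15, edgeR, adjusted p = 9.65e-08). CLSTN1, a calsyntenin, rose by 0.46 and CELSR2, a cadherin of planar polarity, by 0.18, while FAT1, a giant cadherin, fell by 0.27 on the log2 scale (edgeR, adjusted p = 6.57e-05, 0.0255 and 0.0043). The call of CELSR2 was lost with DESeq2 (adjusted p = 0.0680) and without JAZF1-SUZ12 replicate 1 or mock replicate 1 (edgeR, adjusted p = 0.0724 and 0.236).

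Among 8 repressors of E-cadherin transcription, 6 were tested, 2 rose and 1 fell, with a median log2 fold change of 0.054. TWIST1 had 3 and 1 counts in the mock and 17 and 25 in the JAZF1-SUZ12 libraries, a ratio of 10.5 with an exact 95% counting interval from 3.81 to 40.4 (edgeR, adjusted p = 0.00424). It passed the filter on counts through its JAZF1-SUZ12 libraries alone. Its log2 fold change of 3.29 became 4.23 without mock replicate 1 and 2.70 without mock replicate 2, where it was not called (edgeR, adjusted p = 0.0520). ZEB1 rose by 0.30 and TCF3 fell by 0.18 on the log2 scale (edgeR, adjusted p = 0.0421 and 0.0132). ZEB1 lost its call with DESeq2 (adjusted p = 0.203), with no filter (edgeR, adjusted p = 0.0551) and in each fit without 1 library (edgeR, adjusted p from 0.0596 to 0.185). TCF3 lost its call without JAZF1-SUZ12 replicate 2 or mock replicate 2 (edgeR, adjusted p = 0.0507 and 0.103).

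All 19 genes listed for control of the protocadherin clusters were tested, 1 rose and 3 fell, with a median log2 fold change of -0.081. DNMT3A, a DNA methyltransferase, rose from 21.6 ± 0.0804 to 31.9 ± 0.686 CPM (SD, n = 2 each), by 0.55 on the log2 scale (edgeR, adjusted p = 0.000166). DNMT3B, the methyltransferase known to act on protocadherin promoters, fell by 0.23 and WAPL, which releases cohesin from DNA, by 0.22 on the log2 scale (edgeR, adjusted p = 0.00267 and 0.0134). EHMT1, a histone methyltransferase, fell by 0.16 on the log2 scale (edgeR, adjusted p = 0.0474). EHMT1 lost its call with DESeq2 (adjusted p = 0.160), with total counts only (edgeR, adjusted p = 0.0804), with a mean of at least 50 counts (edgeR, adjusted p = 0.0740) and in each fit without 1 library (edgeR, adjusted p from 0.0625 to 0.193). WAPL lost its call without mock replicate 1 (edgeR, adjusted p = 0.103).

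All 18 genes for signalling and cleavage of protocadherins were tested, 2 rose and 1 fell, with a median log2 fold change of -0.028. CYFIP2, a subunit of the WAVE actin complex to which many protocadherin tails bind, rose from 5.45 ± 0.791 to 10.995 ± 0.263 CPM (SD, n = 2 each), by 0.99 on the log2 scale (edgeR, adjusted p = 0.000419). PTK2, the focal adhesion kinase, rose by 0.17 and NCSTN, a subunit of gamma-secretase, fell by 0.19 on the log2 scale (edgeR, adjusted p = 0.0301 and 0.0295). With DESeq2 neither was called (adjusted p = 0.0827 for PTK2 and 0.118 for NCSTN). PTK2 was also not called in any fit without 1 library (edgeR, adjusted p from 0.0517 to 0.203), and NCSTN in 3 of 4 (edgeR, adjusted p up to 0.173).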

How the data were processed

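RNA from 4 K562 libraries, 2 JAZF1-SUZ12 and 2 mock, was measured by poly(A)-selected directional RNA-seq, per the labels' protocols. The submitters' processing notes name fastp 0.20.1, FastQC 0.11.7, MultiQC 1.5, kallisto 0.46.2, DESeq2 1.30.1 and hg38, with no role or order. The authors deposited estimated counts per gene, not normalized; between 33.9% and 37.4% of values in a library are not whole, and they were rounded here before the count tests, which had been planned for whole counts. In the authors' table, per the file headers, the signal is a mean of normalized counts, the log2 values are fold changes with standard errors, the score is their test statistic, and p-values stand before and after adjustment.

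Columns were assigned by sample title. Genes that passed edgeR's filterByExpr (14750 of 35606) were scaled by TMM and tested with edgeR 4.0.16 (R 4.3.3) by the quasi-likelihood F test on group alone. Two-sided p-values were Benjamini-Hochberg adjusted over all genes tested, with a threshold of 0.05. Standard errors were taken as the absolute log2 fold change over the square root of the F statistic. CPM is the rounded count over the library total, times 1000000. Intervals and the floor of 3 counts cover counting error only. Alternatives used DESeq2 1.42.0, limma 3.58.1 (voom), other scalings, filters and thresholds, the replicate number as a block, and leaving out each library. The fits were tested on simulated data.

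Named genes are members called, at most 15 in each direction, CDH1, CDH2, CDH3, CDH5, CDH11 and CDH24, the 5 members of highest CPM, up to 5 called genes of each list, JAZF1 and SUZ12; other members are given by range or to show a cluster's make-up and were picked with their values in view. The members and lists were chosen with earlier results of these data known. Positions and transcripts are from GENCODE 29 (GRCh38), which matched all 88 members by gene ID. Promoter windows are from RefSeq (GRCh38.p14), and 19 members had no entry there: CDH1, CDH3, CDH5, CDH6, CDH11, CDH13, CDH15, CDH16, CDH17, CDH22, CDH24, PCDH10, PCDH20, PCDHA3, PCDHA13, PCDHB6, PCDHB11, PCDHGA12 and PCDHGC5. Sharing between genes is the share of distinct stretches of 31 bases in a gene's transcripts that occur in another gene. Only the direction of the transcripts was used, not the opposite strand.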

Additional observations from a re-analysis of the deposited data

How the results depend on the processing

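The count of 4 members called higher fell to 3 under DESeq2 and under a threshold of 0.01 (CDH23 lost in both) and with a mean of at least 50 counts (where CDH22 was not tested), and was 4 with DESeq2 size factors, total counts only, limma-voom and no filter. It was between 3 and 4 in the fits without 1 library, and 0 members were called lower under any of these. Over all genes, 3643 calls became 2407 with DESeq2, for which the cause was not tested, and 2045 at an adjusted p under 0.01, which is stricter by construction. The split of higher against lower calls, 1955 to 1688, was 2069 to 1351 with total counts only. Without 1 library, 2568 to 3782 genes were called, JAZF1 rose by between 4.60 and 5.70 and SUZ12 by between 0.97 and 1.03 on the log2 scale. The log2 fold change of CDH24, not called in any fit, ranged from -0.025 to 0.11. In these fits the lone library of a group is assumed to vary like those of the other group.

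The replicate number as a block called 4061 genes and the same count of 4 members higher. Deviations of same-numbered libraries had a correlation of -0.00072 over 14750 genes, so the numbers are not taken as a pairing. At this depth 63 of 88 members had too few counts for the test, and whether depth is the cause was not tested.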
